A study of Homo sapiens with 16 samples.

Results

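The B cell receptor signalling core followed here is a set of 9 named genes: CD79A, CD79B, SYK, BTK, BLNK, PLCG2, CD22, CD72 and PIK3AP1. They were taken by symbol from the deposited table. The rule reads the symbol and no measured value, but the set was drawn up with earlier results of these data known. Each symbol matched 1 of the 58051 gene identifiers in the table. All 9 were among the 13765 genes with a mean normalized count of at least 10 that entered the tests, so none was lost to the filter on low values.

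RNA was sequenced from P493-6, an immortalised human B cell line whose MYC transgene is switched down by doxycycline and whose viral factor EBNA2 works only when oestrogen is present. Cells with high MYC grew in DMEM with fetal bovine serum and no additive. Cells with medium MYC were given 0.1 µg/mL doxycycline together with 1 µM β-estradiol for 24 h. Each MYC level then received DMSO (control) or 100 nM IMP1088 for a further 24 h. IMP1088 blocks NMT1 and NMT2, the enzymes that put myristate on the N-terminal glycine of proteins. Each of the 4 groups (control or inhibitor, at high or at medium MYC) holds 4 libraries. All 16 libraries share the 1 cell line, and nothing in the labels says that the replicates came from separate cultures, so p-values measure the spread between these samples, which may be technical. At medium MYC the effects of less MYC, of doxycycline and of estradiol cannot be told apart. The title of the study asks how NMT inhibition acts at different MYC levels.

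The B cell receptor is a membrane immunoglobulin held by the CD79A and CD79B chains, whose tyrosines are phosphorylated by Src-family kinases such as LYN when antigen binds. SYK docks on those tyrosines and phosphorylates the scaffold BLNK, which brings BTK to its substrate PLCG2, the phospholipase that makes the second messengers for calcium release and protein kinase C. CD22 and CD72 are inhibitory co-receptors that recruit the phosphatase SHP-1, the product of PTPN6, and PIK3AP1 (BCAP) is an adaptor that links the receptor to phosphoinositide 3-kinase. LYN is itself myristoylated at its N terminus, as are most Src-family kinases.

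Start regions were looked at because CD22, CD72 and PIK3AP1 were higher at medium than at high MYC in both controls and inhibitor libraries. BTK, PLCG2 and CD79B were lower in both. RefSeq (GRCh38.p14) start windows run from 250 bases before to 50 bases after an annotated start. They matched 8 of the 9 members, all but CD79B, and gave 11 windows. Those of the 3 members that were higher in both settings are shown 5′ to 3′ on the gene's strand, in lower case, with capitals marking the searched motifs that were found. The CD22 window lies at chr19:35328937-35329236 on the plus strand, the CD72 window at chr9:35618364-35618663 on the minus strand and the PIK3AP1 window at chr10:96720465-96720764 on the minus strand. The RefSeq starts used for CD22 and CD72 lie inside the GENCODE spans of these genes, downstream of their outermost starts.
CD22: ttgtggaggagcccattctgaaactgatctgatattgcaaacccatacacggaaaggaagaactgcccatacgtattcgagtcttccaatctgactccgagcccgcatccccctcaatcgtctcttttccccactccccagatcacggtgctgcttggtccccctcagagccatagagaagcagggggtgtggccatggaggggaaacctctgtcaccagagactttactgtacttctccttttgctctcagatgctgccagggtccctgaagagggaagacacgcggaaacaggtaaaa
CD72: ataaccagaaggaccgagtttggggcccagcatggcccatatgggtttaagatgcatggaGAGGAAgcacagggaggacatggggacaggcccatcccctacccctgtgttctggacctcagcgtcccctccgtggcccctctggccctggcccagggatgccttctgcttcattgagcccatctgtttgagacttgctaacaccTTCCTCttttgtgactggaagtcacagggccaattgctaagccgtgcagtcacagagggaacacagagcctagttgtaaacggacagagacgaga
PIK3AP1: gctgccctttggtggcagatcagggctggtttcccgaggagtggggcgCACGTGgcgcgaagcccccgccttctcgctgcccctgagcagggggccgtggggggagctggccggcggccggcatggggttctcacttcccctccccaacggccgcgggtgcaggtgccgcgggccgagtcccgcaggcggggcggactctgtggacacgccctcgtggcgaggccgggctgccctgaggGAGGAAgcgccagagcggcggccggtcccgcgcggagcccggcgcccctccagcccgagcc
Both strands were searched for CACGTG (the E-box that MYC and MAX bind), GTGGGAA (RBPJ, the DNA-binding partner of EBNA2), CCCNNGGG (EBF1), GAGGAA (PU.1) and ATGCAAAT (the octamer of OCT factors), none of which contains another. The PIK3AP1 window holds 1 CACGTG, whose first base is at -202 from the start, and 1 GAGGAA at -11. The CD72 window holds 2 GAGGAA matches, at -190 and -45, and the CD22 window holds none of the 5 motifs. Of the 8 members with a window, CACGTG was found in PIK3AP1 alone and CCCNNGGG in BTK alone, GAGGAA was found in 5 (BTK, CD72, PIK3AP1, PLCG2 and SYK), and GTGGGAA and ATGCAAAT were found in none. Counted by window, GAGGAA was in 7 of the 11, and CACGTG and CCCNNGGG in 1 each. SYK and BTK have more than 1 window and so more places for a match. Among all 35116 windows of this length, 7.26% hold CACGTG, 6.25% GTGGGAA, 19.1% CCCNNGGG, 27.9% GAGGAA and 1.77% ATGCAAAT. GC content was 77.0% in the PIK3AP1 window, 56.3% in that of CD72 and 53.0% in that of CD22. A match describes these letters only, and no binding was measured here.

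Depth lay between 8755296 and 13858534 recovered reads per library. The lowest read count of any member in any library was 173, for CD72 in a high MYC inhibitor library. MYC itself ran from 29693 to 34376 normalized counts in the high MYC controls and from 46843 to 48049 with inhibitor. It ran from 904 to 1022 in the medium MYC controls and from 1328 to 1444 with inhibitor, so the libraries matched their MYC labels. At both levels every inhibitor library lay above every control, so MYC RNA was not constant in the inhibitor comparisons. The part of that rise in the members' changes was not tested. All 8 B cell markers checked were expressed, PAX5 among them. Of the 8 T cell markers, CD3D, CD8A and TRAT1 had 3 reads or fewer in every library, and CD3E, CD3G and CD7 passed the filter, with group means from 11.3 to 59.6 normalized counts. Of the 6 epithelial markers, KRT8, KRT18, KRT19 and KRT5 had 3 reads or fewer in every library, and EPCAM and CDH1 passed the filter. TRAT1, FCN1, KRT18 and KRT5 were at 0.

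With the inhibitor, 8 of the 9 core genes fell at high MYC and 7 fell at medium MYC, and none rose at either level. CD72, CD22 and PIK3AP1 fell most at high MYC. CD79B was not called at either level, and BLNK fell at high MYC but not at medium MYC. The calls come from limma on log2(normalized count + 1) with an adjusted p-value under 0.05. Over all 13765 genes tested, 26.8% were called at high MYC (16.3% lower and 10.5% higher) and 26.3% at medium MYC (14.6% lower and 11.7% higher). The members' median log2 change was -0.33 at high MYC and -0.31 at medium MYC, against -0.02 and -0.01 over all genes tested. The inhibitor libraries lay wholly below their controls for 8 members at high MYC and for 7 at medium MYC. Of all genes tested, 26.7% had no overlap at high MYC (15.8% lower and 10.9% higher) and 27.9% at medium MYC (15.4% lower and 12.4% higher). In these bulk samples, fewer cells of a type and less of a gene's RNA per cell cannot be told apart. Normalized counts are scaled to the other genes of the libraries, in the MYC comparisons too. A change in total RNA per cell would therefore not show, and lower here means lower relative to other genes. The scaling also tends to keep the median change over all genes small.

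**Figure D1:**
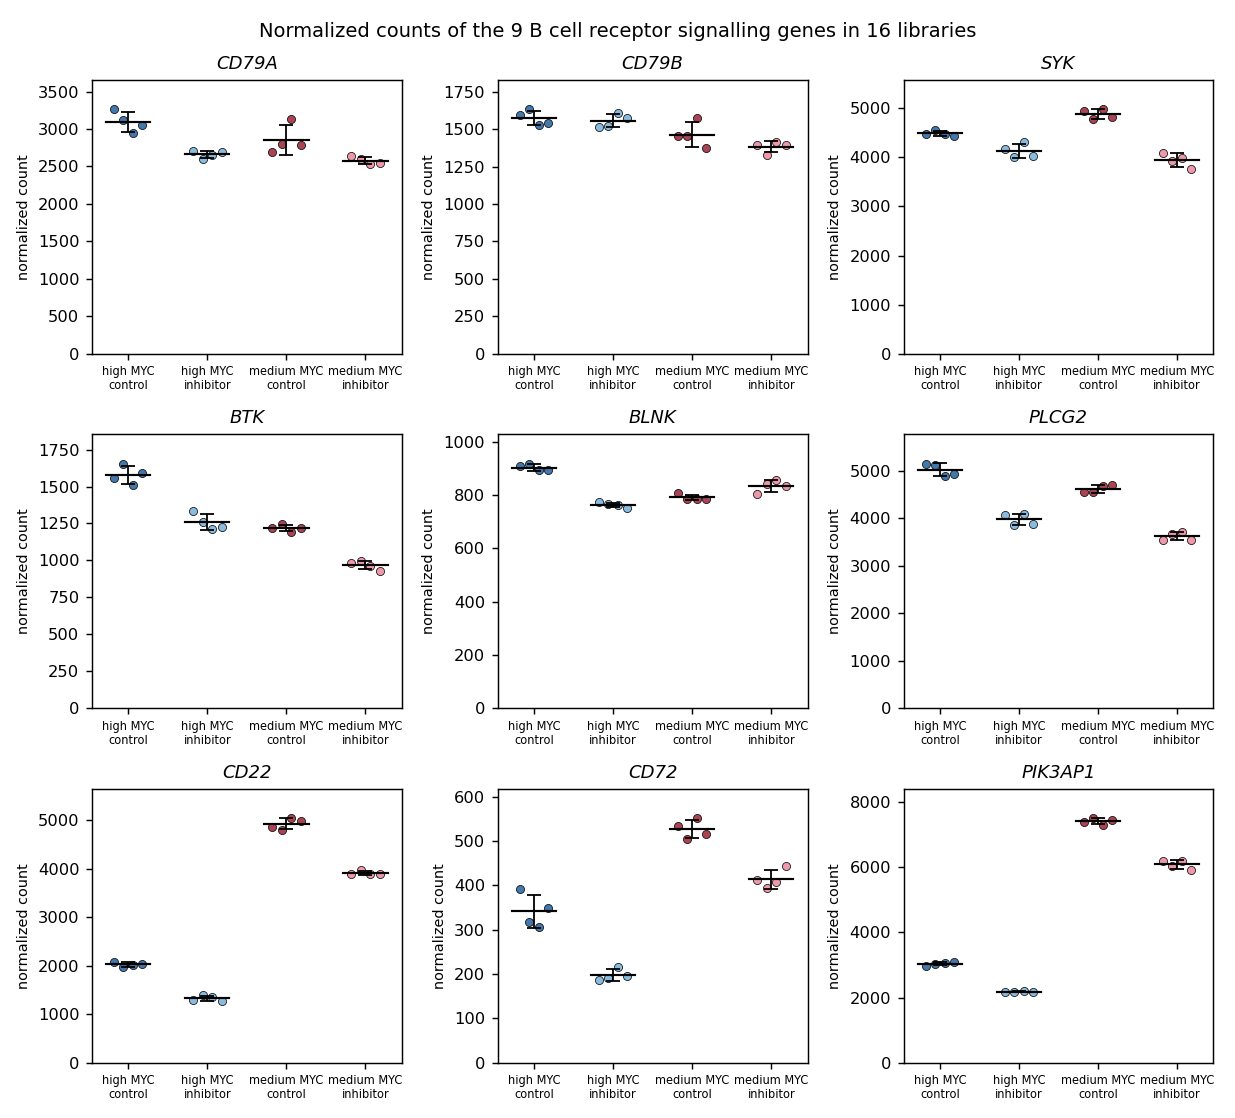
Normalized counts (y axis, from 0) of the 9 genes in each of the 16 libraries, by group (x axis), with points for libraries and bars for the mean and SD of 4. CD22, CD72 and PIK3AP1 sit higher in the medium MYC groups, and the inhibitor points lie below the control points in all panels but those of CD79B and, at medium MYC, BLNK.

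Of the receptor's signalling chains, CD79A fell at both MYC levels and CD79B was called at neither. CD79A (ENSG00000105369, chromosome 19, 41877120 to 41881372, plus strand, GRCh38), the Ig-alpha chain, was measured at 3266, 3119, 2948 and 3050.0 normalized counts in the high MYC controls and at 2707, 2596, 2647 and 2695 with inhibitor. The medium MYC controls had 2690.1, 2799.5, 3138 and 2788, and the inhibitor libraries 2642, 2597, 2527 and 2546. Every inhibitor library was below every control at both levels, although at medium MYC the gap was narrow and control replicate 3 stood above the rest. CD79A fell by 14% at high MYC (log2 change -0.22, SE 0.04, limma adjusted p = 0.000272) and by 9.53% at medium MYC (log2 change -0.14, SE 0.04, limma adjusted p = 0.00884). With a correction for GC content, which is 60.7% in the longest CD79A transcript, the medium MYC change was -0.05 and no longer called (limma adjusted p = 0.178).

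CD79B (ENSG00000007312, chromosome 17, 63928740 to 63932354, minus strand), the Ig-beta chain that pairs with CD79A, was measured at 1593, 1634, 1529.7 and 1539 normalized counts in the high MYC controls and at 1515, 1523, 1607 and 1573 with inhibitor. In the medium MYC controls it had 1456, 1452, 1573 and 1375, and the inhibitor libraries 1396, 1327, 1417 and 1394. The groups overlapped at both levels. Its log2 change was -0.02 at high MYC (95% interval -0.10 to 0.06, limma adjusted p = 0.784) and -0.08 at medium MYC (SE 0.04, limma adjusted p = 0.135). Without medium MYC control replicate 4, the lowest control, the medium MYC change was -0.11 and called (limma adjusted p = 0.0462). With the GC correction the changes were 0.08 (limma adjusted p = 0.0542) and 0.01 (limma adjusted p = 0.854). The ratio of CD79A to CD79B counts was 1.97 ± 0.0636 (SD, n = 4) in the high MYC controls and 1.71 ± 0.0574 (SD, n = 4) with inhibitor. The ratio ran from 1.91 to 2.05 in those controls and from 1.65 to 1.79 with inhibitor, without overlap. At medium MYC it was 1.95 ± 0.0797 (SD, n = 4) in controls and 1.86 ± 0.0762 (SD, n = 4) with inhibitor, and these values overlapped. The ratio was chosen after the values were seen and is given as a description. Exons of CD79B share 288 bases with those of AC127029.3 on the same strand, so reads there could belong to either gene.

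**Figure D2:**
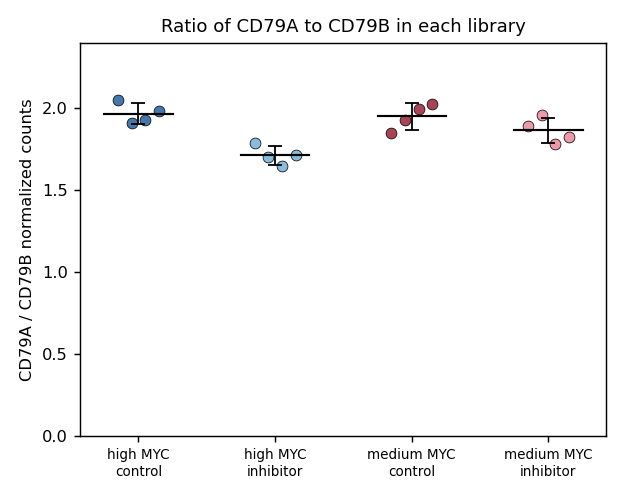
Ratio of CD79A to CD79B normalized counts (y axis, from 0) in each of the 16 libraries by group (x axis), with points for libraries and bars for the mean and SD of 4. The high MYC inhibitor libraries, between 1.65 and 1.79, lie below the high MYC controls, between 1.91 and 2.05.

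Both kinases fell with the inhibitor. SYK (ENSG00000165025, chromosome 9, 90801787 to 90898549, plus strand), the tyrosine kinase that binds the phosphorylated CD79 chains, was measured at 4481, 4551, 4479 and 4446 normalized counts in the high MYC controls and at 4180.0, 4016, 4311 and 4035 with inhibitor. The medium MYC controls had 4944, 4787, 4985 and 4822, and the inhibitor libraries 4099.8, 3923, 3985 and 3756. The inhibitor libraries were below the controls at both levels, by a wider gap at medium MYC. SYK fell by 7.90% at high MYC (log2 change -0.12, SE 0.03, limma adjusted p = 0.00457) and by 19.3% at medium MYC (log2 change -0.31, SE 0.03, limma adjusted p = 6.11e-08). It was the only member whose fall was larger at medium MYC by the test of the difference (0.19 on the log2 scale, SE 0.04, limma adjusted p = 0.00479).

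BTK (ENSG00000010671, chromosome X, 101349447 to 101390796, minus strand), the Tec-family kinase that activates PLCG2, was measured at 1559.8, 1655, 1512 and 1593 normalized counts in the high MYC controls and at 1332, 1258, 1216 and 1228 with inhibitor. Medium MYC controls had 1218, 1243, 1194 and 1220.3, and the inhibitor libraries 983, 993, 965 and 929. The 4 groups formed 3 levels: high MYC controls on top, medium MYC inhibitor libraries at the bottom, and the other two between them with overlapping values. BTK fell by 20.3% at high MYC (log2 change -0.33, SE 0.04, limma adjusted p = 6.94e-07) and by 20.6% at medium MYC (log2 change -0.33, SE 0.04, limma adjusted p = 4.80e-07). The difference between these responses was 0.00 on the log2 scale, with a 95% interval from -0.10 to 0.11 (limma adjusted p = 0.977).

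PLCG2 (ENSG00000197943, chromosome 16, 81739097 to 81962693, plus strand), the phospholipase that SYK and BTK activate, was measured at 5159, 5130.1, 4887 and 4931 normalized counts in the high MYC controls and at 4082, 3861, 4088 and 3885 with inhibitor. The medium MYC controls had 4566, 4549, 4685 and 4706, and the inhibitor libraries 3556, 3673, 3723 and 3555. The 4 groups did not overlap, with the controls of either MYC level above the inhibitor libraries of both. PLCG2 fell by 20.8% at high MYC (log2 change -0.34, SE 0.03, limma adjusted p = 1.43e-08) and by 21.6% at medium MYC (log2 change -0.35, SE 0.03, limma adjusted p = 5.93e-09). The interval of the difference ran from -0.07 to 0.10 on the log2 scale (limma adjusted p = 0.895). Exons of PLCG2 share 386 bases with those of AC099524.1 and 318 with those of RN7SKP176, both on the same strand.

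Of the adaptors, BLNK fell at high MYC and PIK3AP1 at both MYC levels. BLNK (ENSG00000095585, chromosome 10, 96191702 to 96271587, minus strand), the scaffold that joins SYK, BTK and PLCG2, was measured at 911, 919, 893 and 893 normalized counts in the high MYC controls and at 773, 765, 762 and 752 with inhibitor. At medium MYC the controls had 807, 784, 787 and 787, and the inhibitor libraries 804, 840.4, 856 and 836. At high MYC the inhibitor libraries were all below the controls, whereas at medium MYC 3 of the 4 inhibitor libraries were above every control and the fourth lay just under the highest control. BLNK fell by 15.6% at high MYC (log2 change -0.24, SE 0.03, limma adjusted p = 8.00e-06). At medium MYC its log2 change was 0.08 (95% interval 0.01 to 0.14, limma adjusted p = 0.0976). That value was called higher under equal library totals (limma adjusted p = 0.0323), under quantile normalization (limma adjusted p = 0.0155) and by edgeR (edgeR adjusted p = 0.0495). The difference between its responses was -0.32 (SE 0.05, limma adjusted p = 7.94e-05). Exons of BLNK share 355 bases with those of ZNF518A on the opposite strand, and whether the counting used strand is not given in the sources used here.

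PIK3AP1 (ENSG00000155629, chromosome 10, 96593312 to 96720514, minus strand) was measured at 2971, 3023, 3066 and 3079 normalized counts in the high MYC controls and at 2177, 2167, 2188 and 2158 with inhibitor. The medium MYC controls had 7387, 7516, 7309 and 7445, and the inhibitor libraries 6207, 6046, 6208 and 5922. The groups stood fully apart, with both medium MYC groups far above both high MYC groups. PIK3AP1 fell by 28.4% at high MYC (log2 change -0.48, SE 0.02, limma adjusted p = 5.21e-12) and by 17.8% at medium MYC (log2 change -0.28, SE 0.02, limma adjusted p = 1.18e-08). The difference was -0.20 (SE 0.03, limma adjusted p = 0.000470). In counts rather than ratios the order was the other way round, with a fall of 862 normalized counts at high MYC and of 1318 at medium MYC.

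The inhibitory co-receptors gave the largest proportional falls among the 9 members at high MYC. CD22 (ENSG00000012124, chromosome 19, 35319261 to 35347355, plus strand), a sialic acid-binding receptor that dampens receptor signalling, was measured at 2081, 1966, 2006 and 2039.7 normalized counts in the high MYC controls and at 1299, 1398, 1342 and 1278 with inhibitor. Its medium MYC controls had 4859.7, 4803, 5043 and 4986, and the inhibitor libraries 3885, 3973, 3898 and 3878. The groups stood fully apart in the same order as for PIK3AP1. CD22 fell by 34.3% at high MYC (log2 change -0.61, SE 0.03, limma adjusted p = 5.21e-12) and by 20.6% at medium MYC (log2 change -0.33, SE 0.03, limma adjusted p = 3.10e-08). The difference was -0.27 (SE 0.04, limma adjusted p = 0.000176), while the fall in counts was 694 at high MYC and 1014 at medium MYC. Its exons share only 15 and 26 bases with U62631.1 and MIR5196 on the same strand.

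CD72 (ENSG00000137101, chromosome 9, 35609533 to 35646810, minus strand), a C-type lectin-like receptor that binds CD100, was the member with the lowest level. It was measured at 391, 318, 307 and 349.8 normalized counts in the high MYC controls and at 187, 192, 216 and 194 with inhibitor. The medium MYC controls had 535, 505, 552 and 515, and the inhibitor libraries 411, 393, 407 and 444. The groups did not overlap, although high MYC control replicate 1 came close to the lowest medium MYC inhibitor library. CD72 fell by 41.9% at high MYC (log2 change -0.78, SE 0.07, limma adjusted p = 2.39e-08) and by 21.4% at medium MYC (log2 change -0.35, SE 0.07, limma adjusted p = 0.000587). The difference was -0.43 (SE 0.10, limma adjusted p = 0.00593). Here the fall in counts was also larger at high MYC, at 144 against 113. Exons of CD72 share 509 bases with those of TESK1 and 152 with those of AL357874.1, both on the opposite strand.

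**Figure D3:**
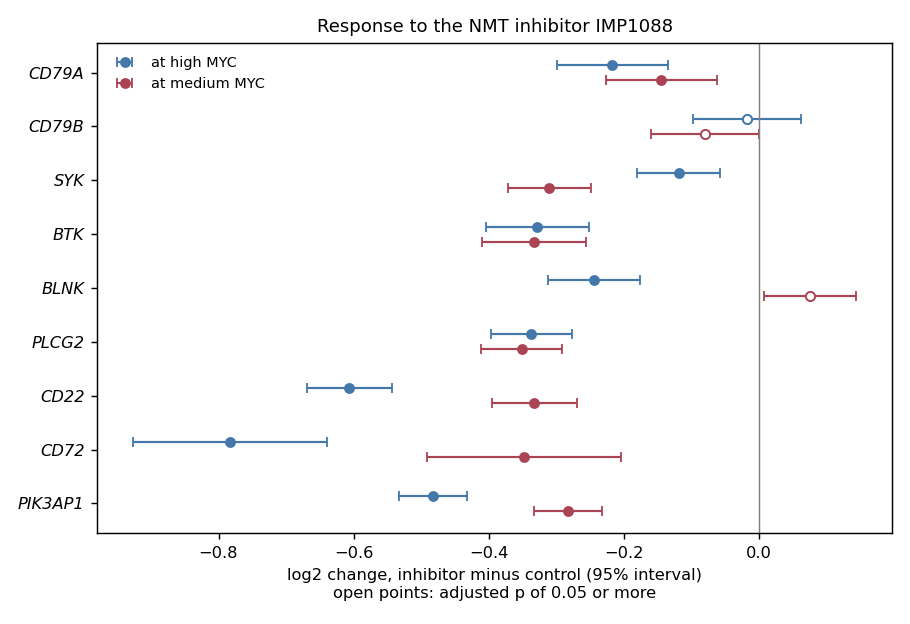
Log2 change of each of the 9 genes with the inhibitor (x axis, inhibitor minus control, with 95% intervals), at high MYC and at medium MYC, with open points for an adjusted p of 0.05 or more. CD72, CD22 and PIK3AP1 lie farthest left at high MYC, at -0.78, -0.61 and -0.48, and at medium MYC all changes lie between -0.35 and 0.08.

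The response differed between MYC levels for 5 of the 9 genes, with BLNK, CD22, CD72 and PIK3AP1 more negative at high MYC and SYK more negative at medium MYC. Over all genes tested, 5.33% were called more negative at high MYC and 3.31% more positive, 8.63% in all. CD79A, CD79B, BTK and PLCG2 were not called. Their 95% intervals on the log2 scale ran from -0.19 to 0.04 for CD79A, from -0.05 to 0.18 for CD79B, from -0.10 to 0.11 for BTK and from -0.07 to 0.10 for PLCG2. At high MYC the members spread from -0.78 to -0.02, and at medium MYC from -0.35 to 0.08. At medium MYC the log2 changes of CD22 (-0.33), CD72 (-0.35) and PIK3AP1 (-0.28) stood beside those of BTK (-0.33) and PLCG2 (-0.35).

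Between the MYC levels the core split. Among controls, CD22, CD72, PIK3AP1 and, by little, SYK were higher at medium MYC, and CD79A, CD79B, BTK, BLNK and PLCG2 were lower. Changes in this comparison were general: 76.2% of all genes tested were called, 38.9% higher and 37.3% lower, so the members' 9 calls of 9 are read against that share. The values of the controls did not overlap for 4 members that were higher and 3 that were lower, against 35.6% and 33.6% of all genes tested, 69.2% in all. The members' median log2 change was -0.11, against 0.02 over all genes tested. These comparisons use the same control libraries as the inhibitor comparisons, so the changes are given side by side and not correlated.

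PIK3AP1 was 2.44-fold higher in medium than in high MYC controls (log2 change 1.29, SE 0.02, limma adjusted p = 2.53e-21) and CD22 was 2.43-fold higher (log2 change 1.28, SE 0.03, limma adjusted p = 1.24e-19). CD72 was 1.55-fold higher (log2 change 0.63, SE 0.07, limma adjusted p = 3.39e-08). SYK was higher by 0.12 on the log2 scale (SE 0.03, limma adjusted p = 0.000863), a call that was lost with the GC correction (0.05, limma adjusted p = 0.116). BTK had the largest fall, of 22.8% (log2 change -0.37, SE 0.04, limma adjusted p = 6.05e-09), followed by BLNK at -0.19 (SE 0.03, limma adjusted p = 1.94e-05). PLCG2 changed by -0.12 (limma adjusted p = 0.000770), CD79A by -0.12 (limma adjusted p = 0.0101) and CD79B by -0.11 (limma adjusted p = 0.0174). For both CD79 chains the control groups overlapped, and CD79B was no longer called without high MYC control replicate 2 (limma adjusted p = 0.0644) or without medium MYC control replicate 4 (limma adjusted p = 0.0850).

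In the inhibitor libraries 77.5% of all genes tested were called between MYC levels, 39.7% higher and 37.8% lower at medium MYC, and 8 of the 9 members were called. CD22 was 2.94-fold, PIK3AP1 2.80-fold and CD72 2.09-fold higher at medium MYC, with log2 changes of 1.56 (SE 0.03), 1.49 (SE 0.02) and 1.06 (SE 0.07). BLNK, which was lower at medium MYC among controls, was higher there in the inhibitor libraries (log2 change 0.13, SE 0.03, limma adjusted p = 0.00133). That call was lost when the GC correction and a replicate block were used together (limma adjusted p = 0.0672). SYK, which was higher among controls, was lower with inhibitor (log2 change -0.07, SE 0.03, limma adjusted p = 0.0375), with overlapping groups. The SYK call was lost under equal library totals (-0.06, limma adjusted p = 0.0701), quantile normalization (-0.02, limma adjusted p = 0.610), no filter (limma adjusted p = 0.0735) and no mean trend (limma adjusted p = 0.0798). It was also lost without high MYC inhibitor replicate 1 (limma adjusted p = 0.0825) or 3 (limma adjusted p = 0.149) and without medium MYC inhibitor replicate 2 (limma adjusted p = 0.0700) or 4 (limma adjusted p = 0.161). BTK at -0.38, CD79B at -0.17 and PLCG2 at -0.13 were lower in both settings, and CD79A was not called with inhibitor (log2 change -0.05, 95% interval -0.13 to 0.04, limma adjusted p = 0.297), although it was called under the GC correction (-0.09, limma adjusted p = 0.00516). Without overlap were 4 members that were higher (CD22, CD72, PIK3AP1 and BLNK) and 3 that were lower (BTK, PLCG2 and CD79B), against 37.2% and 35.4% of all genes tested, 72.6% in all.

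**Figure D4:**
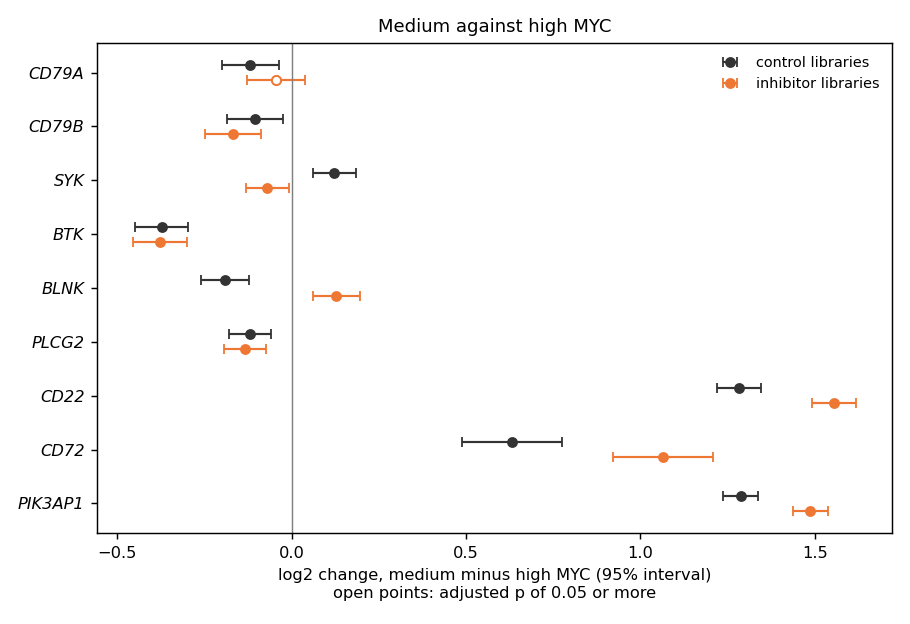
Log2 change of each of the 9 genes between MYC levels (x axis, medium minus high MYC, with 95% intervals), in control libraries and in inhibitor libraries, with open points for an adjusted p of 0.05 or more. CD22, PIK3AP1 and CD72 stand to the right in both, and the values of SYK and BLNK lie on opposite sides of 0 in control and inhibitor libraries.

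To compare genes with each other, counts were divided by the length of each gene's longest transcript. On this per-kilobase scale CD79A was the highest member in every group and CD72 the lowest. In the high MYC controls the order was CD79A at 2461 normalized counts per kilobase, CD79B at 1240.3, SYK at 897, PIK3AP1 at 632, CD22 at 619, PLCG2 at 577, BTK at 571, BLNK at 507 and CD72 at 168. The neighbours PIK3AP1 and CD22, and PLCG2 and BTK, overlapped in their values and have no order. In the medium MYC controls PIK3AP1, at 1544, and CD22, at 1506, were above CD79B at 1154 and SYK at 976. Then came PLCG2 at 531, BLNK at 444 and BTK at 440.5, with the last pair overlapping, and CD72 at 259. With inhibitor at high MYC, PLCG2, BTK and PIK3AP1 shared 1 level, at 457, 455 and 452. With inhibitor at medium MYC, BLNK at 468 stood above PLCG2 at 417 and BTK at 349.7, an order it had in no other group. Dividing by the union of exons instead moved several middle ranks, so these orders depend on the length used. On that scale BLNK at 228 lay below PLCG2 at 270 with inhibitor at medium MYC. With inhibitor at high MYC, PLCG2, BTK and PIK3AP1 were at 297, 275 and 382. In the medium MYC controls SYK at 938 was above CD22 at 799. CD79A stayed first and CD72 last in all 4 groups.

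For each member the 2 genes with the closest pattern were sought among all genes tested, by the Euclidean distance between the 4 group means on the log2 scale, each centred on the gene's own average. TNFRSF13C, the receptor for the B cell survival factor BAFF, lay closest to CD79A at a distance of 0.0126. POM121C was among the 2 closest to CD79B, at 0.0160. SYK was closest to FUOM at 0.0235 and PLCG2 to ASIC3 at 0.0196. Both neighbours were weakly expressed, with group means from 55.2 to 67.9 normalized counts for FUOM and from 17.2 to 25.9 for ASIC3. BLNK was closest to SLC39A11, a zinc transporter, at 0.0162, and BTK to the ribosomal pseudogene RPS20P22 at 0.0350. CD22 was closest to RAB11FIP1 at 0.0611 and XAF1 at 0.0639, and PIK3AP1 to SNX9 at 0.0703 and XAF1 at 0.0717. CD72 was closest to RDH5 at 0.0648 and PARP9 at 0.0674, and RDH5 had group means from only 14.1 to 34.6. How far counting error moves such distances was not tested. Among the members themselves, CD22 and PIK3AP1 were the closest pair at 0.0998, followed by CD79A and CD79B at 0.158. With only 4 group means per gene, such distances describe likeness of pattern over these groups, not of level, and no more.

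The wider pathway was covered by 8 lists of 108 other genes, of which 103 were tested. With the inhibitor at high MYC, 50 of them were lower, 4 higher and 49 were not called, with a median log2 change of -0.15. At medium MYC 43 were lower, 5 higher and 55 not called, with a median of -0.09. The corresponding shares of all genes tested are those given for the members, 16.3% lower and 10.5% higher, and 14.6% lower and 11.7% higher. At high MYC the lower genes were 4 of 11 co-receptors, 7 of 11 Src-family and Tec-family kinases, 11 of 16 adaptors and ubiquitin ligases, 8 of 16 in the PI3K arm, 8 of 17 in the calcium arm, 3 of 11 in the protein kinase C arm, 6 of 15 in the RAS arm and 3 of 6 tyrosine phosphatases. At medium MYC they were 3, 8, 8, 5, 7, 6, 2 and 4, in the same order of lists.

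**Figure D5:**
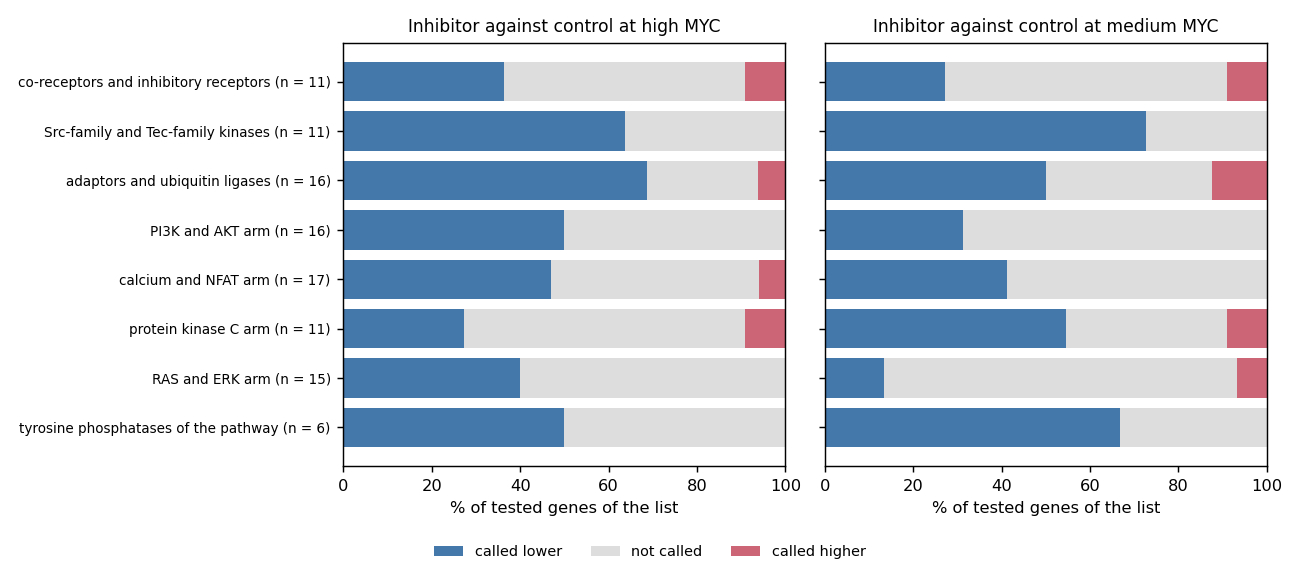
Share of the tested genes of each of the 8 other pathway lists (x axis, percent) that were called lower, not called or called higher with the inhibitor, at high MYC (left) and at medium MYC (right). The adaptors had the most genes lower at high MYC, 11 of 16, and the kinases, 8 of 11, the largest share at medium MYC.

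PTPN6, which encodes the phosphatase SHP-1 that CD22 and CD72 recruit, fell at both MYC levels. Its mean was 1660.1 ± 69.0 normalized counts (SD, n = 4) in the high MYC controls and 760.1 ± 48.3 (SD, n = 4) with inhibitor, and 3093 ± 133 (SD, n = 4) and 1844 ± 48.6 (SD, n = 4) at medium MYC. PTPN6 changed by -1.13 at high MYC (SE 0.04, limma adjusted p = 6.76e-14) and by -0.75 at medium MYC (SE 0.04, limma adjusted p = 2.53e-11), with a difference of -0.38 (SE 0.06, limma adjusted p = 0.000223). Like CD22 and CD72, it fell by a larger ratio at high MYC and was higher in medium than in high MYC controls (log2 change 0.90, SE 0.04, limma adjusted p = 2.88e-14). The receptor-type phosphatase PTPRJ changed by -1.33 and -0.64, and PTPRC (CD45), which activates Src-family kinases, by -0.49 and -0.15, at high and medium MYC.

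FCGR2B, the inhibitory Fc receptor, changed by -0.41 and -0.15, and SIGLEC10, a lectin related to CD22, by -0.59 and -0.37. INPP5D, the lipid phosphatase SHIP-1 that counters phosphoinositide 3-kinase, changed by -0.60 and -0.37, and all 3 of these genes were called lower at both levels. Genes are named for the inhibitor by the smallest p in their lists. Of the 11 co-receptors tested, 6 were not called at high MYC and 7 at medium MYC. CD38, in that list, was called higher at both levels, by 0.13 and 0.20. ORAI2 was called higher at high MYC (0.19). CBLB was called higher at medium MYC (0.14) and lower at high MYC (-0.33). CR2, a complement receptor of B cells, had no read in any high MYC library. Its level was at least 27.1-fold higher in medium than in high MYC controls, against a floor of 3 reads per library.

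LYN, the Src-family kinase that phosphorylates CD79A, CD79B and the tails of CD22 and CD72, had a mean of 1907 ± 62.6 normalized counts (SD, n = 4) in the high MYC controls and of 1399 ± 20.9 (SD, n = 4) with inhibitor. At medium MYC it had 4016 ± 116 (SD, n = 4) in controls and 3725 ± 24.6 (SD, n = 4) with inhibitor. LYN changed by -0.45 at high MYC (SE 0.03, limma adjusted p = 2.49e-10) and by -0.11 at medium MYC (SE 0.03, limma adjusted p = 0.00764), a difference of -0.34 (SE 0.04, limma adjusted p = 8.16e-06). CSK, the kinase that restrains LYN, changed by -0.53 and -0.41, and the adaptor PAG1, which brings CSK to the membrane, by -0.42 and -0.18. Among the adaptors next to BLNK, VAV1 changed by -0.90 and -0.51 and LAT2 by -0.63 and -0.11. HCLS1, a SYK substrate, changed by -0.20 and -0.48, which is the direction of difference seen for SYK (0.29, SE 0.04, limma adjusted p = 4.27e-05). Downstream of PLCG2, the calcium sensor STIM1 changed by -0.45 and -0.51. RASGRP1, which diacylglycerol activates, changed by -0.52 at high MYC (limma adjusted p = 9.38e-06) and had a log2 change of 0.14 at medium MYC (limma adjusted p = 0.143).

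Between MYC levels 66 of the 103 other pathway genes were higher at medium MYC among controls, 28 were lower and 9 were not called, against 38.9% higher and 37.3% lower of all genes tested. Their median log2 change was 0.35, against 0.02 over all genes tested. CD22, CD72, PIK3AP1 and SYK were on the higher side and CD79A, CD79B, BTK, BLNK and PLCG2 on the lower. Among the pathway genes named by rule for this comparison, the ubiquitin ligase CBLB changed by 2.81 and LYN by 1.07, whereas CD38, an ectoenzyme and co-receptor, changed by -1.23 and the calcium channel gene ORAI2 by -1.09. LAT2, named for its response to the inhibitor, changed by 1.24, and CSK had a log2 change of 0.01 (limma adjusted p = 0.891). With inhibitor 64 were higher, 29 lower and 10 not called, against 39.7% higher and 37.8% lower of all genes tested.

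Levels of cell type markers also moved with the groups. The summed level of the 8 B cell markers ran from 38056 to 40324 normalized counts in the high MYC controls, from 32667 to 33811 with inhibitor, from 60081 to 63561 in the medium MYC controls and from 55175 to 56993 with inhibitor. CD74 and MS4A1 made up most of that sum, with means of 17147 and 11652 in the high MYC controls. By single genes, 6 of the 8 were lower and 1 was higher with inhibitor at high MYC, and 4 were lower and 1 was higher at medium MYC. Of all genes tested, 16.3% were lower and 10.5% higher at high MYC, and 14.6% and 11.7% at medium MYC. Among controls 6 of the 8 were higher and 2 lower at medium than at high MYC, against 38.9% higher and 37.3% lower of all genes tested. BACH2, a repressor of plasma cell genes, went the other way from most of the B cell markers. Its changes were 0.75 and 0.81 with inhibitor at high and medium MYC, and -0.73 at medium MYC among controls. BCL11A was also lower at medium MYC among controls, by a log2 change of -1.11.

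The summed level of the 8 plasma cell markers ran from 15086 to 16638 normalized counts in the high MYC controls, from 17538 to 17797 with inhibitor, from 13151 to 13843 in the medium MYC controls and from 17123 to 17528 with inhibitor. That sum joins opposite moves. Among controls 7 of the 8 plasma cell markers were lower at medium MYC and 1 was higher (median log2 change -1.50), and in the inhibitor libraries 6 were lower and 1 higher (median -1.04). Of all genes tested, 37.3% were lower and 38.9% higher among controls, and 37.8% and 39.7% in the inhibitor libraries. JCHAIN had a mean of 7617 normalized counts in high and 664 in medium MYC controls and MZB1 of 1563 and 289.6, while IRF4 had 2036 and 10657. With inhibitor 5 of the 8 were higher and 1 lower at high MYC, and 6 were higher and 2 not called at medium MYC. The shares of all genes tested were 10.5% higher and 16.3% lower at high MYC, and 11.7% and 14.6% at medium MYC. The part of B cell and plasma cell marker genes in the members' changes was not tested.

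T cell markers summed to between 55.9 and 118 over all libraries, monocyte markers to between 41.4 and 84.4 and epithelial markers to between 56.5 and 112. Of the 3 T cell markers tested, CD3G was called lower with inhibitor at both MYC levels and CD3E at medium MYC. Of the 2 epithelial markers tested, EPCAM had means of 62.1 in high and 13.1 in medium MYC controls, and CDH1 of 0.188 and 55.4. LYZ, the 1 monocyte marker tested, was called higher with inhibitor at medium MYC. Their part in the members' changes was not tested.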

How the data were processed

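The authors deposited 1 table of normalized counts for 58051 Ensembl identifiers in 16 libraries. The submitters' processing notes name STAR 2.5.2a, RSEM 1.2.31, DESeq2 1.16.1 and GRCh38, without their roles; the annotation release and any use of strand are not given in the sources used here. This deposited signal is a read count divided by a library factor: 100% of the values came out as whole reads (tolerance 1e-06), and the factors equal median-of-ratios size factors in all 16 libraries (0.858 to 1.33).

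The members and gene lists were chosen with earlier results of these data known. The named genes are all 9 members, up to 3 genes per list with the smallest p in the inhibitor comparisons or their difference, up to 2 per list with the smallest p between MYC levels among controls, LYN, and the 2 nearest patterns per member; not all of these are printed. Symbols came from a name table (56948 identifiers matched), and positions, transcript lengths and GC from GENCODE 29 (57447 matched). CD79B has no start window in the sequence table.

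The main test was limma 3.58.1 (R 4.3.3) on log2(value + 1) for 13765 genes with a mean of at least 10. All 4 groups entered 1 fit with a mean trend, and Benjamini-Hochberg adjustment ran over all genes tested, two-sided, at 0.05. Percent changes are back-transformed from this scale. The fit was run on simulated data with the same spread setting for all genes and changes placed only in the high MYC inhibitor libraries. That setting is simpler than these data, so no error rate is taken from it. Alternatives were equal library totals, quantile normalization, TMM, pseudocounts of 0.1 and 10, no filter, a mean of at least 100, no mean trend, the compared groups alone, a replicate block, a GC correction (loess span 0.3) with and without the block, recovered reads in edgeR 4.0.16 or in DESeq2 1.42.0, and leaving out each library in turn. Detection floors of 3 reads cover counting error only, since the reads carry no molecular identifiers.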

Additional observations from a re-analysis of the deposited data

Results flagged for a closer look

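For 5 members the inhibitor's effect was not the same at high and medium MYC by the test of the difference itself in limma (high minus medium MYC, log2 scale). The difference was -0.32 for BLNK (adjusted p = 7.94e-05), -0.27 for CD22 (adjusted p = 0.000176), -0.43 for CD72 (adjusted p = 0.00593), -0.20 for PIK3AP1 (adjusted p = 0.00047) and 0.19 for SYK (adjusted p = 0.00479). BLNK had a fall at high MYC and a change of 0.08 at medium MYC that was not called. For CD22, CD72, PIK3AP1 and SYK the inhibitor and control libraries did not overlap at either MYC level. Of all genes tested, 8.63% were called for the difference. Without overlap were 26.7% of them at high MYC and 27.9% at medium MYC. In counts rather than ratios, CD22 fell by 694 at high and 1014 at medium MYC, and PIK3AP1 by 862 and 1318.

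BLNK in medium MYC control replicate 1, at 807 normalized counts, stood apart from the other replicates of its group, with a gap to the nearest of them of 0.88 of the group's range, which is above Dixon's 95% critical value for 4 values. It was the only group past that value among the 36 groups of 4 values examined for the 9 members, and chance takes about 1 group in 20 past it.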

How the results depend on the processing

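The number of members called lower with inhibitor at high MYC was 8 under every alternative run, and the difference in response was called for 1 member in the positive and 4 in the negative direction under every alternative that could give it; a fit of only the compared groups cannot give a difference over all 4. At medium MYC 6 to 7 members were lower (7 to 8 when 1 library was left out). There 1 member, BLNK, was called higher against 0 in the reported fit under equal library totals, quantile normalization and edgeR. Over all alternatives, 1307 of 1341 values of single members kept their direction and their side of the threshold, 15 lost the call, 6 gained one and 13 changed sign. Every change of sign was in a value that was not called. CD79B at high MYC changed sign to 0.000232 under equal library totals, 0.03 under quantile normalization, 0.0786 under the GC correction with or without the replicate block, and 0.00047 without high MYC control replicate 2; when 1 library was left out it ran from -0.0339 to 0.00047. CD79B at medium MYC became 0.00942 under the GC correction with or without the block. The difference in response of BTK became -0.00529 under equal library totals and ran from -0.023 to 0.0275 when 1 library was left out, at or below -0.00111 in 5 of these fits (high MYC control replicate 1 or 3, high MYC inhibitor replicate 1, medium MYC control replicate 2, medium MYC inhibitor replicate 4). Other pathway genes called higher with inhibitor were few, and their number ran from 3 to 9 at high MYC and from 3 to 8 at medium MYC over the alternatives. The cause was not tested.

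Titles share replicate numbers, but same-numbered libraries did not deviate together: the mean correlation of their deviations was -0.0715 and -0.0235 between control and inhibitor at high and medium MYC, and 0.0243 and -0.0182 between MYC levels, with the own number best for at most 1 library of 4. With the replicate block, 3496 and 3442 genes were called for the inhibitor at high and medium MYC (3689 and 3618 without it), 1026 for the difference (1188 without it), and 10256 and 10469 between MYC levels among controls and inhibitor libraries (10485 and 10664 without it). The block alone changed no call of a member. Depth limits CD72 most, since its counts are the lowest of the 9.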
